A study of Mus musculus with 8 samples.

Results

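The ephrin, semaphorin, Slit and netrin guidance genes were described in RNA of the left ventricle (LV) of mice infused with angiotensin II (angII). They were taken by gene name and level, with earlier results of these data already known. The names were those of the ephrins (*Efna*, *Efnb*) and their Eph receptors, the semaphorins and plexins, the Slits and Robo receptors, and the netrins and Unc5 receptors. The level required was 1 CPM (a read count scaled to its library's total) or more in 2 or more of the 8 libraries. Of 65 genes with such names in the table, 50 passed, among 13542 genes that passed out of 46040. All libraries came from male C57BL/6 mice aged 5 to 7 months with angII-induced LV hypertrophy, on day 14 of infusion (0.1 mg/kg/h). A group of 4 libraries was tagged wildtype, from littermate controls, and a group of 4 was tagged VEGFR1_TK -/-, from mice that carry in every cell a *Flt1* allele without the tyrosine kinase domain of VEGFR-1. Only mice that survived to day 14 were sampled, and the sources do not say how many animals a library holds, so that p-values measure the spread between libraries.

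The labels contradict each other. The genotype tag and library name of each library give the opposite genotype to its title, so the groups are called control-tagged and TK-/- tagged here, and each log2 fold change sets the TK-/- tagged against the control-tagged libraries. If the titles hold instead, every sign turns over. Total counts lay between 11449137 and 16239670 per library. Mean normalized CPM of *Flt1* itself was 69.3 ± 11.3 in control-tagged and 158 ± 13.2 in TK-/- tagged libraries (SD, n = 4 each). This does not settle the labels, because gene-level counts do not show which form of the transcript was read. Library names mention cardiomyocytes, whereas the source is given as LV tissue, and markers of vessel cells, fibroblasts and leukocytes were all measured. The summed level of 6 cardiomyocyte markers lay between 60334 and 91306 normalized CPM in every library, that of 2 measured atrial markers at 3.68 to 5.90, and none of 3 adipocyte markers passed the filter.

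Guidance genes were first known for steering growing axons, and blood vessels use the same molecules. Ephrins are bound to the cell membrane and signal into both cells at a contact, ephrin-B2 marking arteries and its receptor EphB4 veins. Semaphorins act through plexins, the secreted class 3 members mostly with a neuropilin as co-receptor. Slits bind receptors of the Robo family. Robo4 is a member of it found mainly on endothelium, and whether it binds Slits was not measured here. Netrins bind Unc5 and DCC family receptors, Unc5b being enriched in arterial endothelium and sprouting tip cells.

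Levels were compared between genes as normalized CPM per kb of exons. The highest mean levels in the control-tagged LVs were those of *Plxnd1*, the vascular receptor of semaphorin 3E, at 39.8 ± 7.47 CPM per kb (SD, n = 4), *Efnb3*, a B-class ephrin, at 34.3 ± 11.0, *Sema7a*, a membrane-anchored semaphorin that also binds integrins, at 31.7 ± 5.12, *Ephb4* at 28.8 ± 2.51 and *Robo4* at 23.9 ± 1.99 CPM per kb. *Efna1* and *Plxnb2* followed at 22.7 ± 3.31 and 22.7 ± 3.42 CPM per kb. Of the 49 pairs of neighbours in the order of all 50 control-tagged means, 6 differed by more than the larger of their SDs, among them *Ephb4* from *Robo4* and *Plxnb2* from *Ntn1*, the next at 15.3 CPM per kb. Between the top 4, each differed from the next by less than this spread. The lowest levels, at 0.0907 and 0.0909 CPM per kb, were those of *Robo1* and *Sema3a*. The ligands thus held abundant and scarce members alike, and so did the receptors.

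**Figure D1:**
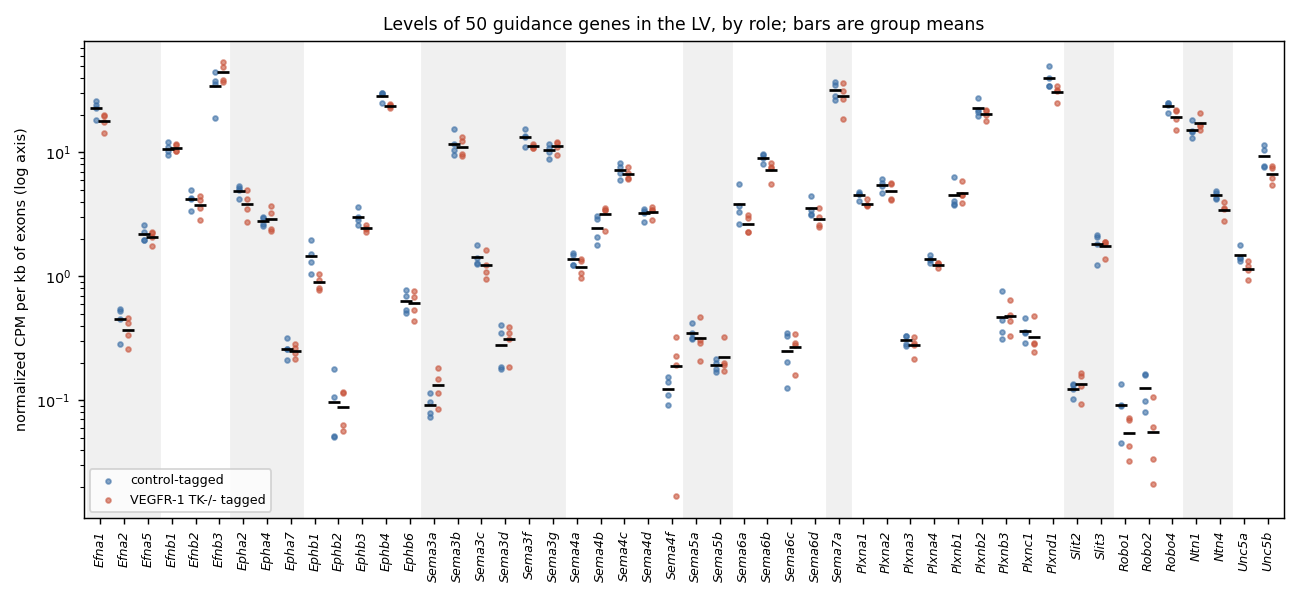
Normalized CPM per kb of exons (log axis) of the 50 guidance genes, ordered by role, with 1 point per library and a bar at the mean of each group of 4. *Plxnd1*, *Efnb3*, *Sema7a*, *Ephb4* and *Robo4* have the highest control-tagged means, from 39.8 down to 23.9 CPM per kb.

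The 15 genes that did not pass had at most 9 reads in any library. They were *Efna3*, *Efna4*, *Epha1*, *Epha3*, *Epha5*, *Epha6*, *Epha8*, *Epha10*, *Ntn5*, *Robo3*, *Sema3e*, *Sema4g*, *Slit1*, *Unc5c* and *Unc5d*, and *Epha5* and *Epha10* had 0 reads in all 8 libraries. Nearest to the threshold from below, the second highest library of *Efna4* had a CPM of 0.666, and from above, that of *Efna2* had a CPM of 1.11. *Sema3e*, the ligand of *Plxnd1*, had 1 to 7 reads per library, so its level could not be compared with that of its receptor.

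Between the groups, 0 of the 50 guidance genes passed both limits set for a call by edgeR's quasi-likelihood test, a false discovery rate (FDR) under 0.1 and a change of 1.5-fold or more, against 0.00738% of all 13542 genes, and the lowest FDR among the 50 was 0.442. The likelihood ratio test of the study's methods called 0 of the 50 and 0.391% of all genes, and DESeq2 called 0 of the 50 and 0.236% of all genes. DESeq2 gave no adjusted p for scarce genes such as *Robo1*, *Robo2* and *Slit2*, so it could not call these. At an unadjusted p under 0.05 by the quasi-likelihood test stood 13 of 50 genes (26%), against 8.96% of all genes. All 13 were lower in the TK-/- tagged libraries, where 5.64% of all genes stood. Of the 50 genes, 35 (70%) had a log2 fold change below 0, against 50.3% of all genes, and their median was -0.15, against -0.00 over all genes. The spread of these values ran from -1.15 for *Robo2* to 0.62 for *Sema4f*, both of them genes with few reads.

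**Figure D2:**
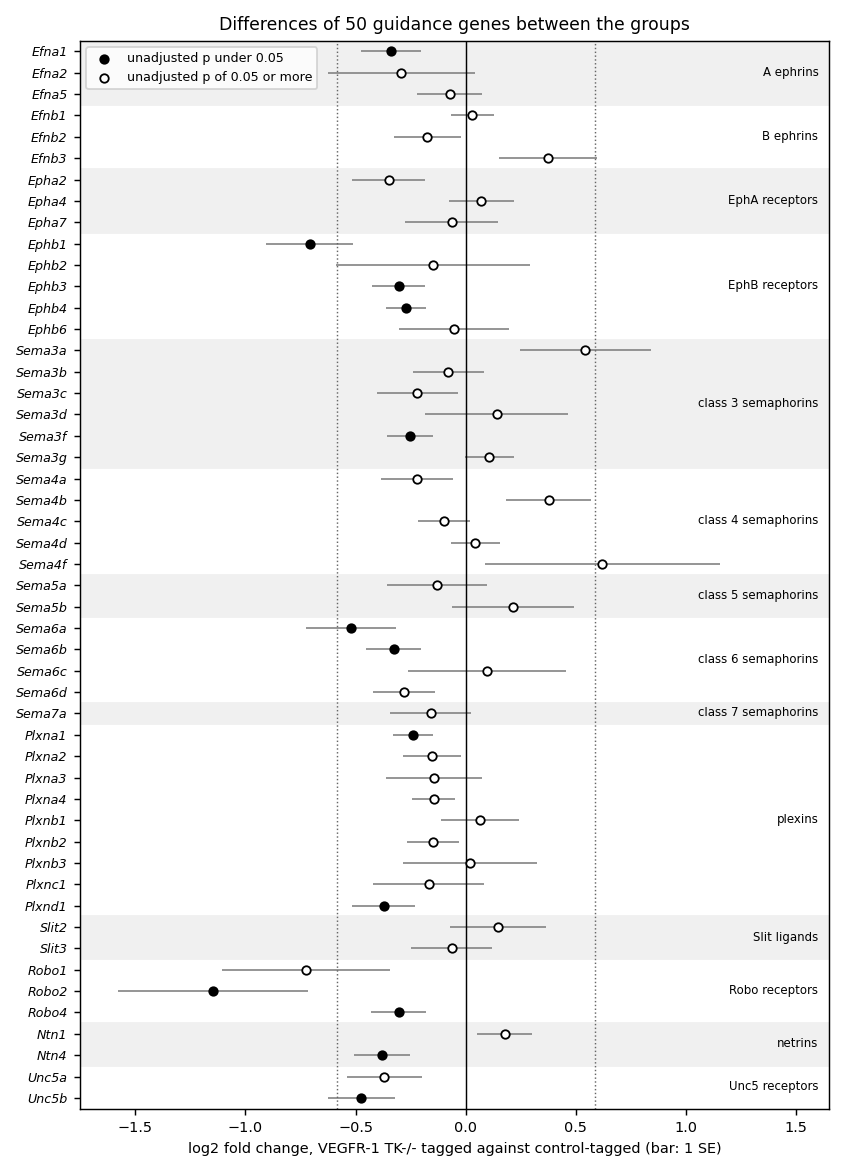
Log2 fold change of each of the 50 guidance genes between 4 TK-/- tagged and 4 control-tagged libraries, with a bar of 1 SE, ordered by role. Filled points have an unadjusted p under 0.05 by edgeR's quasi-likelihood test and lie on the lower side in all 13 genes, and the dotted lines mark a change of 1.5-fold.

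*Ephb4*, *Ntn4*, *Plxna4* and *Unc5a*, 4 of the 50 genes (8%), had groups without overlap, against 4.98% of all genes, and all 4 were lower in the TK-/- tagged libraries, as were 2.53% of all genes. Without replicate 1 of the control-tagged group, the groups did not overlap in 11 of the 50 genes, against 10.2% of all genes then tested. Leaving out control-tagged replicate 4 or TK-/- tagged replicate 1 or 3 gave 8 genes each, against 9.42%, 9.03% and 7.39% of all genes, and leaving out TK-/- tagged replicate 4 gave 7, against 10.3%. The share over all genes thus rose as well. The receptors held more of the lower values than the ligands. Of 22 receptors, 19 (86.4%) had a log2 fold change below 0 and 8 (36.4%) an unadjusted p under 0.05, with a median of -0.20. Of 28 ligands, 16 (57.1%) and 5 (17.9%) did, with a median of -0.08. Over all genes these shares were 50.3% and 8.96%, so the ligands were near the first of them. This difference between receptors and ligands was not tested.

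Libraries differed from each other over the whole family. Taken as the median over the 50 genes of the log2 level minus its control-tagged mean, control-tagged replicates 1 to 4 stood at -0.03, 0.01, 0.06 and -0.00 and TK-/- tagged replicates 1 to 4 at -0.13, -0.19, -0.16 and -0.17. Control-tagged replicate 3 was the highest library in 15 of the 50 genes and replicate 2 in 13, while TK-/- tagged replicate 2 was the lowest in 15. The coefficient of variation within a group of 4 ran from 3.81% for *Ephb4* to 68.6% for *Robo2*, both in the TK-/- tagged group.

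Markers of endothelium and pericytes were mostly lower in mean too, though none had an FDR under 0.1. Of 10 endothelial markers, 9 (90%) had a log2 fold change below 0, against 50.3% of all genes, with a median of -0.26. An unadjusted p under 0.05 was found for 4 (40%), against 8.96% of all genes, namely *Cdh5*, *Esam*, *Pecam1* and *Tie1*. *Kdr* (0.01) and *Emcn* (-0.09) differed least among the 10. The summed level of all 10 was 1967 to 2449 normalized CPM in the control-tagged and 1800 to 1954 in the TK-/- tagged libraries, without overlap. The 8 pericyte markers were all lower, 5 of them (62.5%) at an unadjusted p under 0.05, against 8.96% of all genes. Their median was -0.49, with sums of 1173 to 1679 and 868 to 1192 normalized CPM. Arterial and venous endothelial markers had medians of -0.35 (5 genes) and -0.40 (3 genes), leukocyte markers -0.31 (7 genes), fibroblast markers -0.16 (7 genes), lymphatic endothelial markers -0.10 (3 genes), Schwann cell and neuron markers -0.15 (6 of 10 genes measured), smooth muscle markers 0.00 (5 genes, 3 of them above 0) and cardiomyocyte markers 0.18 (6 genes). The part of these markers other than the endothelial ones in the values of the guidance genes was not tested. In LV tissue, fewer cells of a type and less RNA per cell cannot be told apart.

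The levels were also set against the summed endothelial markers of the same library, a scale chosen after the values were seen. Because that sum was lower by 0.25 on the log2 scale in the TK-/- tagged libraries, this scale raises every gene by about as much, and the median over all genes was 0.26 on it. The median of the guidance genes was 0.10, below that of all genes by 0.16, and 15 of the 50 (30%) were below 0, against 13.2% of all genes. The groups did not overlap in 1 of the 50, against 16.3% of all genes. Of the 13 genes with an unadjusted p under 0.05, 11 were below 0 on this scale, with a median of -0.08 in place of -0.34. These 13 were picked by p in the same libraries and were all lower there, so this count follows in part from the choice. *Ephb4* was at 59.5 ± 2.67 CPM per 1000 CPM of endothelial markers in the control-tagged and 58.9 ± 1.72 in the TK-/- tagged libraries (SD, n = 4), a difference of -0.01 on the log2 scale, so it differed between the groups by about as much as the endothelial markers did. *Robo4* was at 56.5 ± 2.6 and 54.4 ± 7.83, *Plxnd1* at 129 ± 15.0 and 119 ± 12.04, and *Unc5b* at 25.9 ± 3.25 and 22.4 ± 3.13 CPM per 1000 CPM. *Robo2* (-0.93), *Ephb1* (-0.41), *Robo1* (-0.38) and *Sema6a* (-0.22) kept the lowest differences on this scale.

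**Figure D3:**
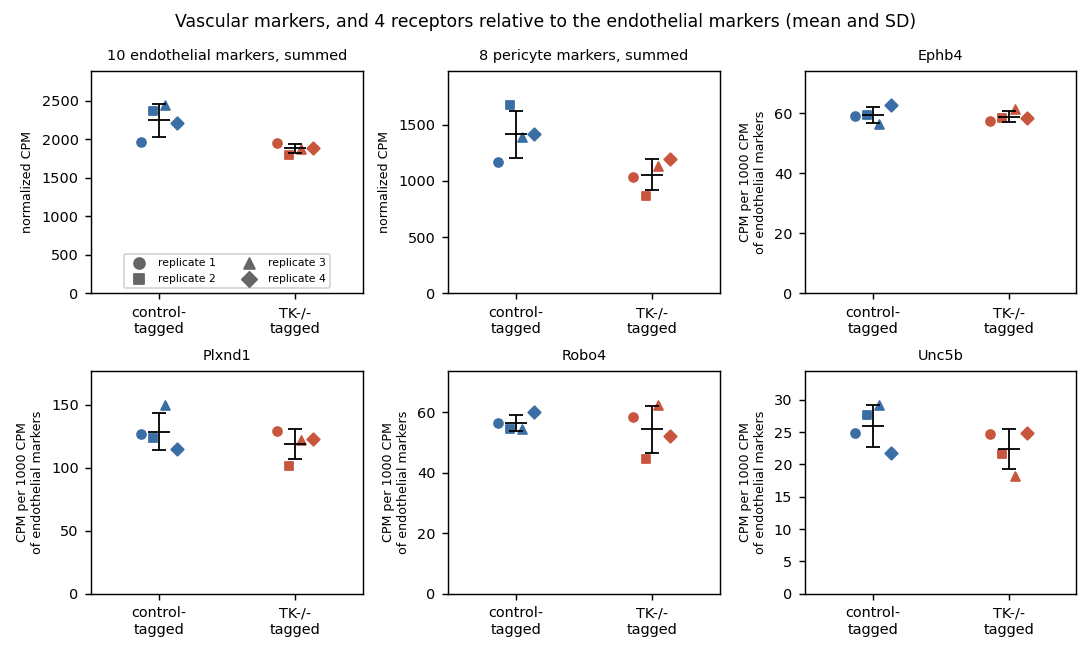
Summed normalized CPM of 10 endothelial and 8 pericyte markers per library, and the level of 4 receptors per 1000 CPM of the endothelial markers, with mean and SD of 4 libraries per group and a symbol for each replicate. The endothelial sums do not overlap between the groups, while *Ephb4* on the endothelial scale is at 59.5 and 58.9.

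Of the ephrins, *Efna1*, an A-class ephrin induced in endothelium by inflammatory cytokines, stood out by its unadjusted p. *Efna1* (ENSMUSG00000027954, chromosome 3, 89271733 to 89281142, all coordinates in GRCm38) had a normalized CPM of 33.2, 41.7, 44.3 and 47.3 in control-tagged replicates 1 to 4 and 36.3, 36.7, 32.5 and 26.1 in TK-/- tagged replicates 1 to 4. The lowest control-tagged library lay among the TK-/- tagged ones, so the groups overlapped. The means were 41.6 ± 6.06 and 32.9 ± 4.93 (SD, n = 4 each), for a log2 fold change of -0.34 (SE 0.14, FDR = 0.519). *Efna5* was at 8.88 and 8.45 and *Efna2* at 0.962 and 0.783 mean normalized CPM.

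*Efnb2*, the arterial ephrin and ligand of *Ephb4* (ENSMUSG00000001300, chromosome 8, 8617434 to 8661242), had a normalized CPM of 23.2, 33.8, 28.8 and 29.7 in the control-tagged and 30.4, 28.2, 19.4 and 24.3 in the TK-/- tagged replicates. These ranges lay mostly inside each other, and the log2 fold change was -0.17 (SE 0.15, FDR = 0.760). *Efnb3* (ENSMUSG00000003934, chromosome 11, 69554092 to 69560205), the most abundant ephrin per kb, spread most among the abundant genes. Its control-tagged replicates had 143, 60.1, 120.1 and 113 normalized CPM and its TK-/- tagged replicates 117, 156, 169.7 and 122. Control-tagged replicate 2 was far below the other libraries, and the log2 fold change of 0.37 (SE 0.22, FDR = 0.641) was 0.17 without that library. *Efnb1*, whose gene is X-linked, was at 37.1 ± 3.71 and 37.8 ± 2.56 normalized CPM (SD, n = 4 each), for a log2 fold change of 0.03.

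Among the Eph receptors, which are receptor tyrosine kinases, *Epha2* bound by ephrin-A1 (ENSMUSG00000006445, chromosome 4, 141301240 to 141329384) had 23.1, 19.5, 25.2 and 24.2 normalized CPM in the control-tagged and 16.3, 12.9, 23.1 and 19.8 in the TK-/- tagged replicates. The groups overlapped, with a log2 fold change of -0.35 (SE 0.16, FDR = 0.560). *Epha4* was at 22.4 and 23.5 and *Epha7* at 2.58 and 2.47 mean normalized CPM, log2 fold changes of 0.07 and -0.06.

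All 5 EphB receptors had a log2 fold change below 0, and 3 of them an unadjusted p under 0.05. *Ephb4*, the venous receptor needed for the forming vessels of the embryo (ENSMUSG00000029710, chromosome 5, 137350109 to 137378669), had 116, 141, 138 and 139 normalized CPM in control-tagged replicates 1 to 4 and 112, 105, 115 and 110.5 in TK-/- tagged replicates 1 to 4. Control-tagged replicate 1 was close to the TK-/- tagged libraries, yet every control-tagged library was above each of these. The means were 134 ± 11.6 and 111 ± 4.22 (SD, n = 4 each), for a log2 fold change of -0.27 (SE 0.09, FDR = 0.468) with an exact 2-sided permutation p = 0.0286, the smallest that 4 libraries against 4 allow. Its FDR varied between 0.235 and 0.941 with other tests, scalings, filters and sets of libraries. *Ephb4* lies on the chromosome of *Flt1*, 10.2 Mb away, and the other guidance genes of this chromosome lie 99.3 Mb or more from it, *Slit2* being the nearest.

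*Ephb1* had the lowest FDR of all 50 genes. This receptor (ENSMUSG00000032537, chromosome 9, 101922128 to 102354693) had 7.34, 9.15, 13.8 and 10.6 normalized CPM in the control-tagged and 5.69, 5.42, 7.35 and 6.54 in the TK-/- tagged replicates. The groups overlapped by a margin of 7.34 against 7.35, with an exact permutation p = 0.0571. The means were 10.2 ± 2.73 and 6.25 ± 0.875 (SD, n = 4 each), for a log2 fold change of -0.71 (SE 0.20, FDR = 0.442). The log2 fold change was -0.84 to -0.53 when single libraries were left out, and the FDR over all alternatives was 0.127 to 0.941. *Ephb3* (ENSMUSG00000005958, chromosome 16, 21204755 to 21223305) had 20.1, 18.9, 23.9 and 17.2 normalized CPM in the control-tagged and 15.3, 16.2, 17.4 and 16.02 in the TK-/- tagged replicates. These groups overlapped in 1 library on each side, with a log2 fold change of -0.30 (SE 0.12, FDR = 0.508). *Ephb6*, whose kinase domain is inactive, was at 2.37 and 2.28 and *Ephb2* at 1.22 and 1.10 mean normalized CPM, log2 fold changes of -0.05 and -0.15.

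The bases before the starts of 4 vascular receptor genes are shown as context for the values of *Ephb4*, *Plxnd1*, *Robo4* and *Unc5b*, all of which had an unadjusted p under 0.05. The 250 bases before each start were taken from RefSeq (GRCm38.p6), at chr5:137349859-137350108 on the plus strand, chr6:115995006-115995255 on the minus strand, chr9:37401722-37401971 on the plus strand and chr10:60831582-60831831 on the minus strand, and run 5′ to 3′ in the direction of the gene. Capitals mark GGAA or its reverse complement TTCC, the core that ETS factors, many of them active in endothelium, bind.
Ephb4: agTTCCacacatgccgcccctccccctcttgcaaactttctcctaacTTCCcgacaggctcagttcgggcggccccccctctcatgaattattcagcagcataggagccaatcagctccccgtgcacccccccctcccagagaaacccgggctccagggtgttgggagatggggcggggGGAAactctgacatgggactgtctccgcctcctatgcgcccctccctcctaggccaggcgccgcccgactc
Plxnd1: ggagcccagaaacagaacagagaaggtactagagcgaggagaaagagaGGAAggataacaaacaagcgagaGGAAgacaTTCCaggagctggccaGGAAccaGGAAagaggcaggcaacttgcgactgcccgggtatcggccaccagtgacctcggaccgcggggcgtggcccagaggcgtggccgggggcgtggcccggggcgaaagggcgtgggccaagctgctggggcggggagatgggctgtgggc
Robo4: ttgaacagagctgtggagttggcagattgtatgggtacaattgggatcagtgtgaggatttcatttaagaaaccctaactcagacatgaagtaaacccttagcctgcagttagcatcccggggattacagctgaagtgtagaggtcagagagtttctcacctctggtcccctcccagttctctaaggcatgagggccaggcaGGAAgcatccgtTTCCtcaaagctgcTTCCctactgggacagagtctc
Unc5b: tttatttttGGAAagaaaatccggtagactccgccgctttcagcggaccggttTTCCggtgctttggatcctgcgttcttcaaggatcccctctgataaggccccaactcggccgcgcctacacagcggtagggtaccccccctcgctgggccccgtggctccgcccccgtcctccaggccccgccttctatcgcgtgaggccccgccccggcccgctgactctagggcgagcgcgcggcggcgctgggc

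GGAA, on either strand, occurred 3 times before *Ephb4*, 5 times before *Plxnd1*, 3 times before *Robo4* and 2 times before *Unc5b*, and in 93.4% of all 32851 RefSeq windows of this length, so it is common to most genes. Starts were listed for 43 of the 50 guidance genes, of which 38 held GGAA, and 4 of these starts lay over 1 kb from the start in GENCODE. The GC box GGGCGG, on either strand and in part overlapping CpG sites, was in 31 of the 43 (72.1%), against 32.7% of all windows, and in 7 of the 10 listed genes with an unadjusted p under 0.05. TATAAA was in 2 of the 43, against 12.4% of all windows. The median GC content was 65.6% over the 43 windows and 52.4% over all windows. All windows hold several starts for some genes and were not limited to the 13542 genes tested. These contrasts therefore do not separate guidance genes from other genes measured in the LV. Of the 4 windows shown, that of *Robo4* held no GC box and had the lowest GC content, 49.6%, and those of *Ephb4*, *Plxnd1* and *Unc5b* had 64.0%, 64.8% and 66.8%.

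The plexins, single-pass receptors with a domain that acts on small GTPases, included *Plxnd1* (ENSMUSG00000030123, chromosome 6, 115954811 to 115995005), the most abundant guidance gene per kb. Its normalized CPM was 250.1, 292, 367 and 253 in the control-tagged and 253, 183, 229 and 233 in the TK-/- tagged replicates. Control-tagged replicate 3 was the highest and TK-/- tagged replicate 2 the lowest, and the groups overlapped by TK-/- tagged replicate 1. The means were 291 ± 54.6 and 224 ± 29.5 (SD, n = 4 each), for a log2 fold change of -0.37 (SE 0.14, FDR = 0.506). *Plxna1* (ENSMUSG00000030084, chromosome 6, 89316314 to 89362620) had 42.1, 43.1, 42.0 and 36.9 normalized CPM in the control-tagged and 37.8, 33.9, 33.8 and 33.6 in the TK-/- tagged replicates. Only control-tagged replicate 4 and TK-/- tagged replicate 1 crossed, with a log2 fold change of -0.24 (SE 0.09, FDR = 0.505). *Plxna1* shares 970 exon bases with *Gm26811* on the opposite strand, and reads of both cannot be told apart if the counting took no account of strand.

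*Plxnb1*, the receptor of semaphorin 4D (ENSMUSG00000053646, chromosome 9, 109095389 to 109119917), had 39.0, 36.9, 61.3 and 36.1 normalized CPM in the control-tagged and 43.6, 43.8, 56.5 and 37.5 in the TK-/- tagged replicates. The replicate numbered 3 was the highest in both groups, and the log2 fold change was 0.06 (SE 0.18, FDR = 0.937), changing sign when any of 3 libraries was left out. *Plxna4*, a partner of neuropilin-1, did not overlap between the groups, at 18.2 to 20.8 against 16.4 to 18.1 normalized CPM, but had a small log2 fold change of -0.15 (SE 0.10, FDR = 0.685). The other plexins were *Plxnb2* (175 and 158 mean normalized CPM, log2 fold change -0.15), *Plxna2* (93.6 and 84.1, -0.15), *Plxnb3* (3.03 and 3.09, 0.02), *Plxnc1* (3.03 and 2.71, -0.17) and *Plxna3* (2.41 and 2.18, -0.14).

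Among the secreted class 3 semaphorins, *Sema3f*, which acts through neuropilin-2 (ENSMUSG00000034684, chromosome 9, 107681500 to 107710475), was the most abundant per kb. Its normalized CPM was 69.0, 80.3, 70.8 and 57.7 in the control-tagged and 58.8, 56.7, 61.3 and 56.2 in the TK-/- tagged replicates. The TK-/- tagged libraries lay close together and control-tagged replicate 4 among them. The means were 69.4 ± 9.28 and 58.3 ± 2.33 (SD, n = 4 each), for a log2 fold change of -0.25 (SE 0.10, FDR = 0.521). Its neighbour *Sema3b* was at 56.3 and 53.3 mean normalized CPM, and *Sema3g*, known from arterial endothelium, at 47.3 ± 5.61 and 50.9 ± 5.19 (SD, n = 4 each), log2 fold changes of -0.08 and 0.11. *Sema3c* was at 10.2 and 8.79, *Sema3d* at 2.41 and 2.66, and *Sema3a*, a guide of cardiac sympathetic nerves, at 1.26 and 1.84 mean normalized CPM. The log2 fold change of *Sema3a*, 0.54 (SE 0.30, FDR = 0.618), rested on 15 to 31 reads per library.

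The membrane-bound class 4 semaphorins showed both signs. *Sema4c* (ENSMUSG00000026121, chromosome 1, 36548639 to 36558349) had 27.8, 31.3, 37.9 and 34.9 normalized CPM in the control-tagged and 28.7, 28.1, 35.2 and 31.2 in the TK-/- tagged replicates, and *Sema4d*, which signals through plexin-B1 (ENSMUSG00000021451, chromosome 13, 51685529 to 51793747), had 26.0, 21.2, 25.1 and 26.8 in the control-tagged and 27.7, 26.2, 26.2 and 21.9 in the TK-/- tagged replicates. Both pairs of ranges overlapped widely, with log2 fold changes of -0.10 (SE 0.12, FDR = 0.839) and 0.04 (SE 0.11, FDR = 0.933). *Sema4b* was higher in mean, at 13.9 ± 3.59 and 18.1 ± 3.40 normalized CPM (SD, n = 4 each), with overlapping groups and a log2 fold change of 0.38 (SE 0.20, FDR = 0.604). *Sema4a* was at 7.45 and 6.39, and *Sema4f* at 0.654 and 1.00 mean normalized CPM, the latter with 1 to 21 reads per library.

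Of the transmembrane class 6 semaphorins, 2 of 4 had an unadjusted p under 0.05. *Sema6a*, a regulator of endothelial growth (ENSMUSG00000019647), had 23.4, 32.3, 49.2 and 29.1 normalized CPM in the control-tagged and 25.8, 27.4, 20.1 and 20.2 in the TK-/- tagged replicates. Control-tagged replicate 3 was far above the rest and replicate 1 lay among the TK-/- tagged libraries. The means were 33.5 ± 11.1 and 23.4 ± 3.78 (SD, n = 4 each), for a log2 fold change of -0.52 (SE 0.20, FDR = 0.508), which ran from -0.66 to -0.28 when single libraries were left out. *Sema6b* (ENSMUSG00000001227, chromosome 17, 56123085 to 56140343) had 32.0, 35.6, 38.1 and 38.7 normalized CPM in the control-tagged and 29.8, 22.1, 32.7 and 30.4 in the TK-/- tagged replicates. The groups crossed only between control-tagged replicate 1 and TK-/- tagged replicate 3, with a log2 fold change of -0.33 (SE 0.12, FDR = 0.506). *Sema6d*, known from the developing heart, was at 37.4 and 30.8 and *Sema6c* at 1.49 and 1.59 mean normalized CPM, log2 fold changes of -0.28 and 0.10.

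*Sema7a* (ENSMUSG00000038264, chromosome 9, 57940112 to 57962865) had 93.6, 123, 87.3 and 115 normalized CPM in the control-tagged and 89.5, 61.4, 103 and 120.4 in the TK-/- tagged replicates. The TK-/- tagged libraries spread around the control-tagged ones on both sides, with a log2 fold change of -0.16 (SE 0.18, FDR = 0.828). *Sema5a* (ENSMUSG00000022231, chromosome 15, 32244810 to 32696341) had 6.51, 5.88, 5.92 and 7.92 in the control-tagged and 3.90, 5.68, 5.45 and 8.85 normalized CPM in the TK-/- tagged replicates, a log2 fold change of -0.13 (SE 0.23, FDR = 0.892), and *Sema5b* was at 1.35 and 1.57 mean normalized CPM.

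**Figure D4:**
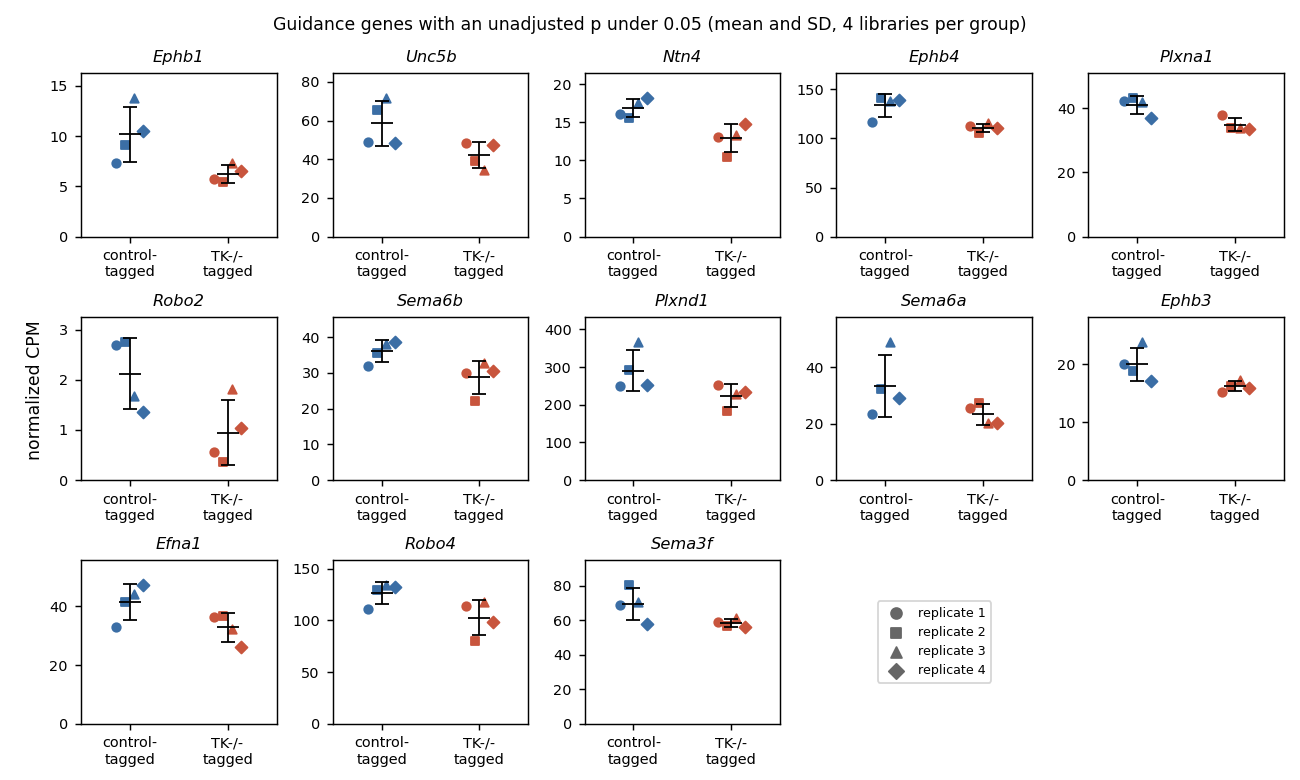
Normalized CPM per library of the 13 guidance genes with an unadjusted p under 0.05, ordered by p, with mean and SD of 4 libraries per group and a symbol for each replicate. Only in *Ephb4* and *Ntn4* is every control-tagged library above every TK-/- tagged library among these 13.

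Robo receptors, proteins of the immunoglobulin superfamily, were lower in mean in all 3 cases. *Robo4* (ENSMUSG00000032125, chromosome 9, 37401897 to 37415115) had 111, 129, 134 and 133 normalized CPM in the control-tagged and 114, 80.2, 117 and 98.8 in the TK-/- tagged replicates. Control-tagged replicate 1 was below 2 of the TK-/- tagged libraries, and TK-/- tagged replicate 2 was the lowest. The means were 127 ± 10.6 and 103 ± 17.04 (SD, n = 4 each), for a log2 fold change of -0.30 (SE 0.12, FDR = 0.521).

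*Robo2* (ENSMUSG00000052516, chromosome 16, 73891839 to 74411825) and *Robo1* (ENSMUSG00000022883, chromosome 16, 72308306 to 73046095), neighbours on the chromosome, were scarce. *Robo2* had 4 to 38 reads per library, at 2.69, 2.76, 1.68 and 1.36 normalized CPM in the control-tagged and 0.569, 0.355, 1.82 and 1.04 in the TK-/- tagged replicates. TK-/- tagged replicate 3 lay within the control-tagged range, and the log2 fold change was -1.15 (SE 0.43, FDR = 0.505). *Robo1* had 6 to 28 reads per library, at 0.749, 1.52, 1.48 and 2.24 normalized CPM in the control-tagged and 1.14, 0.533, 0.711 and 1.20 in the TK-/- tagged replicates. The groups overlapped, with a log2 fold change of -0.73 (SE 0.38, FDR = 0.609). The Slit ligands, *Slit2* and *Slit3*, differed little in mean. *Slit3* (ENSMUSG00000056427, chromosome 11, 35121224 to 35708507) had 13.1, 12.6, 11.2 and 7.44 in the control-tagged and 11.5, 11.1, 8.37 and 11.4 normalized CPM in the TK-/- tagged replicates, and *Slit2* (ENSMUSG00000031558, chromosome 5, 47983138 to 48307733) had 3.14, 3.41, 2.62 and 3.36 and 3.98, 3.28, 2.37 and 4.22. Both pairs of ranges overlapped, with log2 fold changes of -0.06 (SE 0.18, FDR = 0.939) and 0.15 (SE 0.22, FDR = 0.870).

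The netrins, laminin-related secreted proteins, went in opposite directions in mean. *Ntn1* (ENSMUSG00000020902, chromosome 11, 68209364 to 68400823) had 93.6, 82.5, 116 and 92.0 normalized CPM in the control-tagged and 95.7, 129.6, 103 and 105 in the TK-/- tagged replicates, a log2 fold change of 0.18 (SE 0.13, FDR = 0.708) with overlapping groups. *Ntn4*, a component of vessel basement membranes (ENSMUSG00000020019, chromosome 10, 93640681 to 93747207), had 16.02, 15.6, 17.6 and 18.2 in the control-tagged and 13.1, 10.5, 13.3 and 14.8 in the TK-/- tagged replicates. Every control-tagged library was above every TK-/- tagged one, with an exact permutation p = 0.0286. The means were 16.8 ± 1.21 and 12.9 ± 1.80 (SD, n = 4 each), for a log2 fold change of -0.38 (SE 0.13, FDR = 0.468). Other settings gave it an FDR between 0.295 and 0.941.

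*Unc5b* (ENSMUSG00000020099, chromosome 10, 60762593 to 60831581) had 49.0, 65.3, 71.6 and 48.1 normalized CPM in the control-tagged and 48.3, 39.0, 34.3 and 47.1 in the TK-/- tagged replicates. Control-tagged replicate 4 was below TK-/- tagged replicate 1 by 48.1 against 48.3, and the other libraries were separate. The means were 58.5 ± 11.8 and 42.2 ± 6.68 (SD, n = 4 each), for a log2 fold change of -0.47 (SE 0.15, FDR = 0.464). Other settings gave it an FDR between 0.234 and 0.941. *Unc5a* was scarcer, at 5.54 to 7.47 against 3.90 to 5.50 normalized CPM without overlap, and had a log2 fold change of -0.37 (SE 0.17, FDR = 0.556).

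Ligand and receptor were also compared within each library, as the log2 ratio of their CPM per kb. Of 7 pairs listed, 6 had both genes among the 50. *Ntn1* stood above *Unc5b* by 0.93, 0.33, 0.69 and 0.93 in control-tagged replicates 1 to 4 and by 0.98, 1.73, 1.58 and 1.15 in TK-/- tagged replicates 1 to 4. The groups did not overlap, the mean ratio differing by 0.64. The exact permutation test gave p = 0.0286, the smallest possible, and p = 0.171 after adjustment over the 6 pairs by Benjamini-Hochberg. A single pair at the smallest p cannot come under 0.05 after this adjustment, so the adjusted value cannot decide whether this ratio differed. The ratio of *Slit2* to *Robo1* differed by 0.74 and that of *Slit2* to *Robo4* by 0.43, each with p = 0.343 by the same exact test and adjustment. The ratio of *Efnb2* to *Ephb4* was -2.78 ± 0.11 in the control-tagged and -2.69 ± 0.32 in the TK-/- tagged libraries (SD, n = 4 each), so the arterial ligand stood below the venous receptor per kb by a like amount in both groups. The differences of *Efnb2* to *Ephb4*, *Efna1* to *Epha2* and *Sema4d* to *Plxnb1* were 0.09, 0.04 and -0.04, each with p = 0.914 by the exact permutation test, adjusted likewise.

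**Figure D5:**
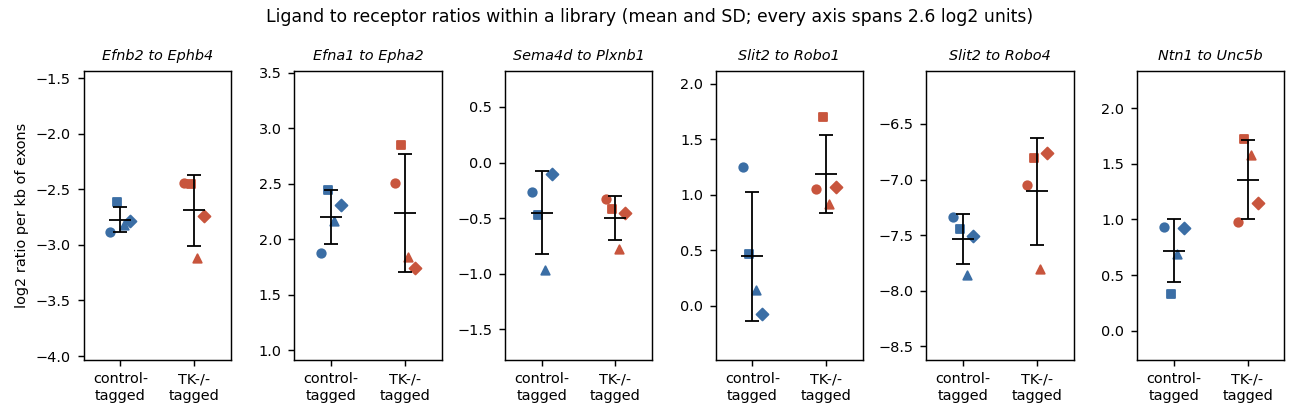
Log2 ratio of ligand to receptor, per kb of exons, in each library for 6 pairs, with mean and SD of 4 libraries per group and circles, squares, triangles and diamonds for replicates 1 to 4. The groups are apart only for *Ntn1* to *Unc5b*, at 0.33 to 0.93 and 0.98 to 1.73, and every axis spans the same number of log2 units.

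Partners of the guidance genes were counted in the same way. Of 57 co-receptors and effectors listed, 51 passed the filter, in 52 rows of the table because *Mical3* has 2. In 38 of these rows they had a log2 fold change below 0, against 50.3% of all genes, and in 14 above it, and the median was -0.15. The quasi-likelihood test gave none an FDR below 0.1, and 13 (25%) had an unadjusted p under 0.05, against 8.96% of all genes, all 13 lower in the TK-/- tagged libraries. They included the co-receptor *Nrp2* (log2 fold change -0.38, SE 0.14), the adaptor *Nck2* (-0.48, SE 0.12), *Arhgef15*, an exchange factor of vessels that acts downstream of Eph receptors (-0.34, SE 0.11), the exchange factors *Vav2* (-0.30, SE 0.13) and *Kalrn* (-0.35, SE 0.14), the actin regulators *Evl* (-0.32, SE 0.11) and *Enah* (-0.28, SE 0.12), *Ptk2*, which encodes focal adhesion kinase (-0.30, SE 0.10), and the Robo effector *Srgap1* (-0.33, SE 0.14). *Met*, *Dpysl3*, *Rgmb* and 1 of the 2 *Mical3* rows (ENSMUSG00000003178) completed the 13, with log2 fold changes from -0.55 to -0.34. That *Mical3* row had 16.1 mean normalized CPM in the control-tagged libraries. The other (ENSMUSG00000051586) had 149 there and a log2 fold change of -0.09 (SE 0.11).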

How the data were processed

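The authors trimmed paired-end reads with Trim Galore 0.4.4, aligned them to GRCm38 with STAR 2.5.4b and assigned them to GENCODE genes with featureCounts. Whether the counting used strand is not given in the sources used here. They deposited raw counts per gene for 8 libraries, which were used as deposited. The labels name ribosomal RNA depletion where the methods name poly-A selection.

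The filter required 1 CPM in 2 libraries. On the 13542 genes left, edgeR 4.0.16 in R 4.3.3 was run with TMM factors and its quasi-likelihood test, without covariates. FDR denotes p adjusted by Benjamini-Hochberg over all of them, and SE is the absolute log2 fold change divided by the square root of F. Normalized CPM scales a count to the TMM-adjusted library size, and log2 levels used a prior count of 2. Exon lengths, coordinates and overlapping genes came from GENCODE M21 (GRCm38). Single genes and ratios were compared by exact 2-sided permutation tests over all assignments of 4 and 4 libraries. The p-values of the ratios were adjusted by Benjamini-Hochberg over the pairs tested. At this depth a CPM of 1 stands for 11.4 to 16.2 reads, which makes *Robo1* and other scarce genes imprecise. The biological coefficient of variation was 15.1%, and libraries within a group differed by more than sampling noise (chi-square of 7.17 to 54.3 for each degree of freedom). Each library was counted as 1 replicate, though this spread cannot show that each came from a separate animal. The quasi-likelihood, likelihood ratio and DESeq2 tests were tried on simulated data with log2 fold changes of 2 in either direction. Those changes were larger than any of the guidance genes, so recovery of smaller ones was not tried. The ratios, promoter counts and endothelial scale were not tried on simulated data.

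Members and lists were chosen with earlier results of these data known. Full values are given by rule for the most abundant gene of each role, those with an unadjusted p under 0.05 and those of the ligand and receptor pairs, and the other members by means or ranges. The settings varied were the test (likelihood ratio, DESeq2 1.42.0), robust estimates, RLE factors, total counts, no filter, filterByExpr, other thresholds, each library left out, the replicate number as a block and the titles as groups. The scale by endothelial markers was added after the values were seen.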

Additional observations from a re-analysis of the deposited data

Results flagged for a closer look

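In 112 groups of 4 values, 1 for each of the 50 genes and 6 ratios in each genotype, 5 held a library whose gap to its nearest neighbour was too large a share of the group's range by Dixon's criterion. Chance flags about 1 in 20 such groups. The libraries were control-tagged replicate 1 for *Ephb4* at 116 normalized CPM, the lowest of its group, and control-tagged replicate 3 for *Plxnb1* at 61.3, the highest. In the TK-/- tagged group they were replicate 1 for *Plxna1* at 37.8, the highest, replicate 4 for *Sema4b* at 13.0, the lowest, and replicate 3 for *Slit3* at 8.37 normalized CPM, the lowest.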

How the results depend on the processing

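No guidance gene was called under any of 17 alternatives, nor at an FDR under 0.05 or without the fold threshold. The number with an unadjusted p under 0.05 was 9 to 15 when single libraries were left out (5.25% to 10.1% of all genes), 14 by the likelihood ratio test (9.14%), 13 by DESeq2 (8.67%) and 17 without the filter (7.16%). The median log2 fold change ran from -0.18 to -0.11 and the number of genes below 0 from 34 to 38 when single libraries were left out, and between 4 and 11 genes then did not overlap. Scaled to the endothelial markers, the median was 0.10, 15 genes were below 0 and 1 did not overlap, a shift fixed by the scale, on which the median of all genes was 0.26. With groups from the titles the median was 0.15, 15 genes were below 0 and 0 of the 50 genes kept their sign, by construction. Between 42 and 50 genes kept their sign when single libraries were left out. In 15 of the 50 genes the sign changed when some library was left out. Of those with full values, *Plxnb1* ran from -0.062 to 0.28, *Sema4d* from -0.025 to 0.11, *Sema5a* from -0.39 to 0.027 and *Slit3* from -0.21 to 0.032. The ratio of *Efna1* to *Epha2* ran from -0.17 to 0.20 and that of *Sema4d* to *Plxnb1* from -0.21 to 0.072. The cause was not tested. With the replicate block, 16 guidance genes and 9.19% of all genes reached an unadjusted p under 0.05, and no guidance gene was called. Same-numbered libraries did not all deviate together, with correlations of -0.03, 0.03, 0.34 and -0.06 for numbers 1 to 4. Only for control-tagged replicate 3 was the same-numbered TK-/- tagged library the one that correlated best. Such correlations cannot show whether the libraries were paired. Depth limits the scarce genes: *Robo1*, *Robo2*, *Efna2*, *Ephb2*, *Sema3a*, *Sema4f*, *Sema5b* and *Sema6c* had 38 reads or fewer in every library.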
